A study of Rattus norvegicus with 6 samples.

Results

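Small RNA of rat lung was examined for miR-7, miR-9, miR-124 and miR-375, miRNAs known from neurons and neuroendocrine cells. Members were found by name, as every listed miRNA called rno- plus miR-7a, miR-7b, miR-9a, miR-9b, miR-124 or miR-375, alone or followed by a hyphen, which gave 10 of the 693 listed miRNAs. Lungs came from male Sprague-Dawley rats 7 to 8 weeks old under urethane, in 3 sham samples (opened chest, no clamp; labelled control) and 3 ischemia reperfusion (IR) samples (left hilum clamped for 45 min, then reperfused). How long the lungs were reperfused and which lobe was taken were not found in the labels or methods. Each sample gave 1 library. The samples of a group are biological replicates in the study's words, but the animal behind each is not stated, and p-values measure the spread between these samples. The comparison asks which miRNAs differ in the lung after IR.

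A miRNA is cut from one arm of a hairpin and guides repression of mRNAs that match its seed, nucleotides 2 to 8. miR-124 and miR-9 are classic miRNAs of the nervous system, where miR-124 is kept by mature neurons and miR-9 is prominent in neural progenitors. miR-7 is known from neurons, the pituitary and pancreatic islets, and miR-375 from islets, where it restrains insulin secretion, and from secretory epithelia. In the lung, miR-375 has been described in alveolar type II cells and neuroendocrine cells. In whole tissue, fewer cells of a type and less RNA per cell cannot be told apart.

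RefSeq (build GRCr8) held a mature sequence for 8 of the 10 members. They are shown because their seeds divide the members and because 4 of them are complementary in pairs. Seeds are in capitals, 5′ to 3′.
rno-miR-7a-5p: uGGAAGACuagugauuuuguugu
rno-miR-7b: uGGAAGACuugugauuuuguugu
rno-miR-7a-1-3p: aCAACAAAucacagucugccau
rno-miR-375-3p: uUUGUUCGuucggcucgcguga
rno-miR-9a-5p: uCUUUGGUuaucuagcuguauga
rno-miR-9b-3p: aUACAGCUagauaaccaa
rno-miR-9a-3p: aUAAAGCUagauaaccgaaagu
rno-miR-9b-5p: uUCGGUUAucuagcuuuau

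rno-miR-7a-5p and rno-miR-7b have the same seed and the same length of 23 nt, and differ by the single substitution A10U, counted from 1 at the 5′ end of rno-miR-7a-5p. rno-miR-7a-1-3p shares its seed with 1 other listed miRNA, rno-miR-3065-5p. The seeds of rno-miR-375-3p and of all 4 miR-9 members were carried by no other listed miRNA with a sequence. The mature rno-miR-7a-5p has 2 genes. One is within the span of Hnrnpk, which codes for an RNA-binding protein, at chr17:6278710-6278732 (+ strand), and the other is at chr1:142215818-142215840 (+ strand), within a lncRNA. rno-miR-375-3p is at chr9:83906591-83906612 (- strand), within the span of Cryba2, a lens crystallin gene, and also within that of LOC134480387, another protein-coding gene. rno-miR-9a-5p has 3 genes, at chr1:142849415-142849437, chr2:15933307-15933329 and chr2:175974986-175975008 (all + strand). These positions are those of the RefSeq sequences, since the deposited table has none, and the table cannot assign reads to one of several gene copies.

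Library totals ran from 3775663 miRNA reads in IR replicate 2 to 11248166 in IR replicate 3, so that 3 reads correspond to 0.267 to 0.795 TPM, the deposited count per 1000000 listed reads. Each read stands for a whole miRNA, so that levels were not divided by length. Levels below are TMM-normalized counts per 1000000 reads (CPM). The factors of this scaling were lowest in sham replicate 3 (0.867) and IR replicate 2 (0.929) and lay between 1.05 and 1.06 in the other libraries. The endothelial marker miR-126a-3p stood at 78148 to 105437 CPM and the ciliated cell marker miR-34c-5p at 3568 to 8079 CPM. The liver marker miR-122-5p lay between 0.621 and 9.21 CPM. These markers are not specific to the lung. IR was compared with sham by edgeR's quasi-likelihood test over the 418 miRNAs with enough reads, at an adjusted p (Benjamini-Hochberg) under 0.05.

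After IR, 0 of the 6 tested members passed the test, and the other 4 members had too few reads for it. Over all 418 tested miRNAs 44 passed (10.5%). At an unadjusted p under 0.05 the counts were 0 of 6 members and 110 of 418, and 0 of the members were called by DESeq2 or by limma. The IR libraries overlapped the sham libraries in each of the 6 tested members, where 34.0% of all tested miRNAs had groups that did not overlap. Of the 6, 5 had a log2 fold change above 0, beside 204 of 418, and the median was 0.45 beside -0.01 over all tested. rno-miR-9a-5p and rno-miR-9b-3p are counted separately here although they hold nearly the same reads. Other opposite-strand names with near-equal counts, described below, also enter the library totals separately and, where tested, the shares over all tested miRNAs.

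The members ranged from 5473 CPM to single reads. rno-miR-7a-5p was the 45th and rno-miR-375-3p the 50th most abundant of the 693 miRNAs by mean TPM, rno-miR-9a-5p the 200th, rno-miR-9b-3p the 201st and rno-miR-7a-1-3p the 250th. rno-miR-9a-3p followed at place 411 and rno-miR-124-3p at 520. rno-miR-7a-5p was above rno-miR-375-3p in sham replicates 1 and 3 and in IR replicates 1 and 2, and below it in sham replicate 2 and IR replicate 3, so that the order of these neighbours was not the same in all libraries. rno-miR-9a-5p was above rno-miR-7a-1-3p in all 6 libraries. rno-miR-9a-3p and rno-miR-124-3p overlapped, with a lowest level of 0.590 CPM for the first and a highest of 0.672 for the second.

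**Figure D1:**
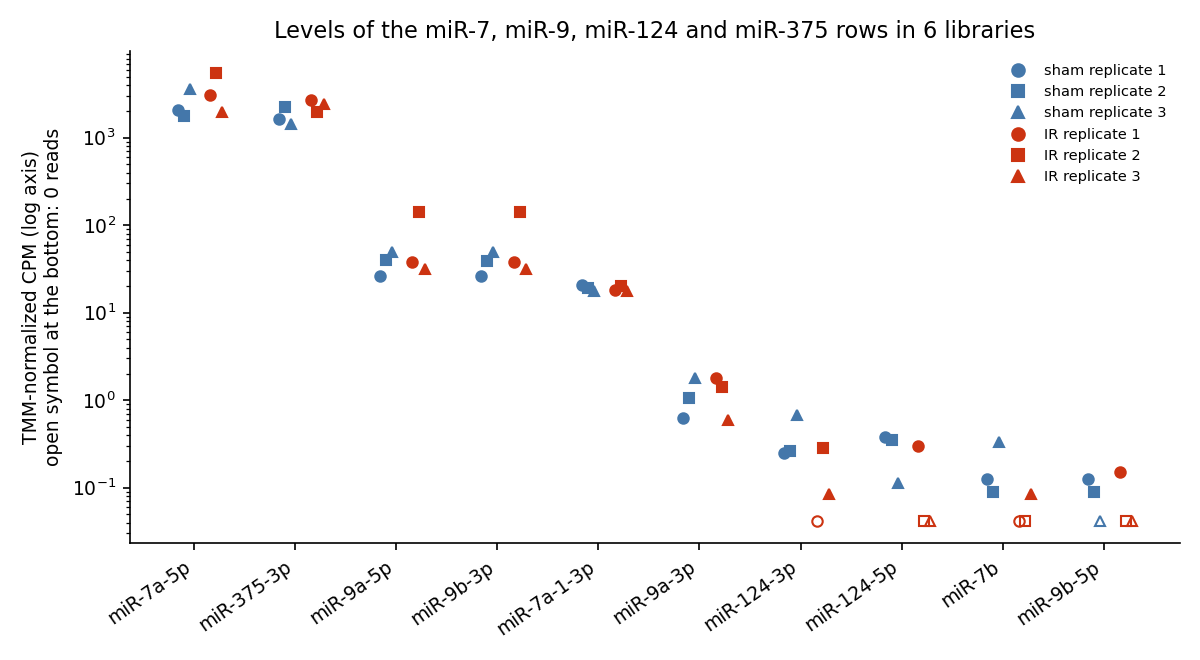
TMM-normalized CPM (vertical log axis) of the 10 members in 3 sham (blue) and 3 IR (red) libraries, 1 symbol per library, with open symbols at the bottom for 0 reads. miR-7a-5p and miR-375-3p lie between 1449.8 and 5473 CPM in all libraries, miR-124, miR-7b and miR-9b-5p lie under 1 CPM, and IR replicate 2 stands apart at 142.5 CPM for miR-9a-5p.

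rno-miR-7a-5p, the main product of the miR-7 hairpins, stood at 2072, 1784 and 3573 CPM in sham replicates 1, 2 and 3. In IR replicates 1, 2 and 3 it stood at 3054, 5473 and 1949 CPM. The highest library was IR replicate 2, the next was sham replicate 3, and the lowest IR library lay below 2 of the 3 sham libraries. The mean of the sham libraries was 2476 ± 961 CPM and that of the IR libraries 3492 ± 1802 CPM (SD, n = 3 per group), a log2 fold change of 0.50 with a standard error of 0.39 (95% interval -0.40 to 1.40, adjusted p = 0.454 from edgeR). The 2 libraries with the highest values were those with the lowest scaling factors. In TPM, which does not use the factors, rno-miR-7a-5p still stood highest in IR replicate 2 (5085), while sham replicate 3 (3096) lay below IR replicate 1 (3211). Without IR replicate 2 the log2 fold change was 0.01.

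rno-miR-7a-1-3p, the other arm of one miR-7a hairpin, was the steadiest member. It lay at 20.5, 19.0 and 17.6 CPM in sham replicates 1 to 3 and at 18.1, 20.0 and 17.8 CPM in IR replicates 1 to 3. Its highest library was 1.17 times its lowest, whereas that ratio was 3.07 for rno-miR-7a-5p. The log2 fold change was -0.04, with a standard error of 0.19 and a 95% interval of -0.48 to 0.41 (adjusted p = 0.936 from edgeR). Over the 6 libraries the arms had a Pearson's r of 0.07 on log2(CPM + 1), a description over libraries that share depth and scaling.

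The ratio of reads of rno-miR-7a-5p to reads of rno-miR-7a-1-3p therefore varied between libraries. It was 101, 94.0 and 203 in sham replicates 1 to 3 and 169, 274 and 109.6 in IR replicates 1 to 3, and it needs no scaling between libraries. The groups overlapped, with a sham mean of 133 ± 61.1 and an IR mean of 184 ± 83.4 (SD, n = 3 per group, exact permutation test, two-sided, p = 0.5, where the smallest possible p is 0.1). In RefSeq the 5p sequence is at 2 genes and the 3p sequence at 1, so that the ratio may not be that of a single hairpin.

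**Figure D2:**
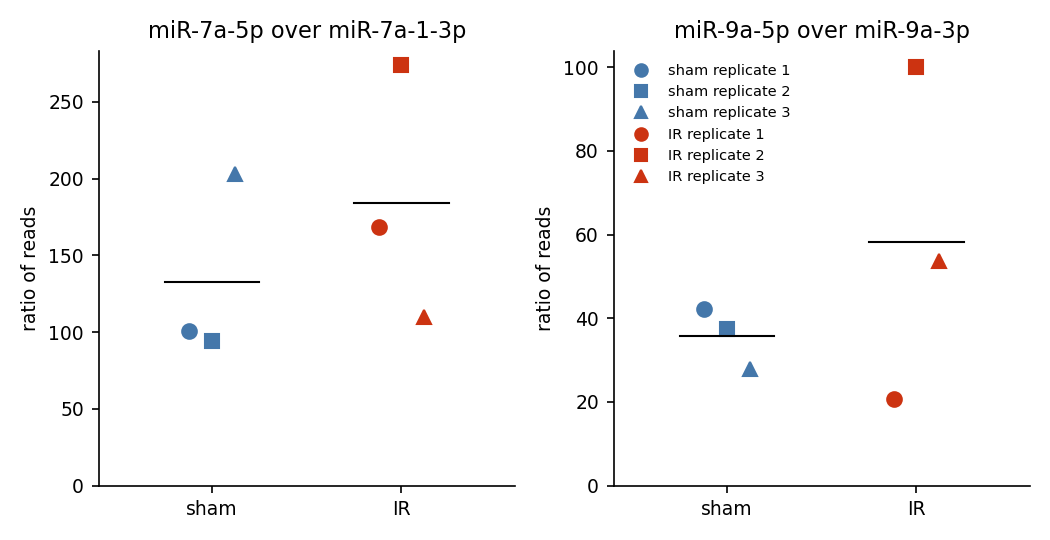
Ratio of reads of the 5p arm to reads of the 3p arm (vertical axis, from 0) for miR-7a and miR-9a in each library, with the mean of each group as a line (n = 3). The highest ratio is that of IR replicate 2 in both panels, 274 for miR-7a and 100 for miR-9a, and the groups overlap in both.

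rno-miR-7b, which differs from rno-miR-7a-5p by A10U, had 6 reads over the 6 libraries, against 131028 of rno-miR-7a-5p. It had 1, 1 and 3 reads in sham replicates 1 to 3 and 0, 0 and 1 reads in IR replicates 1 to 3. The level over the groups gave a ratio of IR to sham of 0.267 with a 95% exact (Clopper-Pearson) interval of 0.00565 to 2.39. Such intervals cover counting error only. The handling of mismatches in the authors' mapping is not given, so that reads of rno-miR-7b and of rno-miR-7a-5p with a base error at that position cannot be told apart.

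rno-miR-375-3p stood at 1633, 2257 and 1449.8 CPM in sham replicates 1 to 3. It stood at 2671, 1958 and 2409.7 CPM in IR replicates 1 to 3. IR replicates 1 and 3 were above all sham libraries and IR replicate 2 was below sham replicate 2. The sham mean was 1779.8 ± 423 CPM and the IR mean 2346 ± 361 CPM (SD, n = 3 per group), with a log2 fold change of 0.40 and a standard error of 0.20. The 95% interval was -0.05 to 0.85 and the adjusted p was 0.247 from edgeR, the lowest adjusted p of the 6 tested members.

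Other epithelial miRNAs, listed for the lung epithelium as a whole, are given beside rno-miR-375-3p. The 9 tested arms of the miR-200 family (miR-141, miR-200a, miR-200b, miR-200c and miR-429), which keep epithelial cells from a mesenchymal state, had a summed level of 13191 to 16187 CPM in sham and of 19074 to 19617 CPM after IR. Of these 9, 8 had a log2 fold change above 0 and 0 passed the test, with a median of 0.33. The 3 most abundant, miR-200a-3p, miR-200b-3p and miR-200c-3p, had log2 fold changes of 0.34, 0.55 and 0.28 (adjusted p = 0.132, 0.0647 and 0.296 from edgeR). The sum itself was not tested, nor was its part in the value of rno-miR-375-3p. Across the 6 libraries r with rno-miR-375-3p ran from -0.56 for miR-141-5p to 0.96 for miR-200c-5p over the 9 arms. miR-200c-5p had only 126 reads in all. For the abundant miR-200a-3p, miR-200b-3p and miR-200c-3p r was 0.87, 0.64 and 0.26. The list of ciliated airway cells summed to 3888 to 8575 CPM in sham and 5803 to 6568 CPM after IR, with 0 of 6 tested miRNAs called.

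rno-miR-9a-5p, the main miR-9 product, had 211, 448 and 447 reads in sham replicates 1 to 3 and 249, 500 and 376 reads in IR replicates 1 to 3. These gave 26.6, 39.7 and 50.1 CPM in sham and 37.6, 142.5 and 31.7 CPM after IR. IR replicate 2 stood apart, and the other IR libraries lay within the range of sham. The sham mean was 38.8 ± 11.8 CPM and the IR mean 70.6 ± 62.4 CPM (SD, n = 3 per group). The log2 fold change of 0.85 had a standard error of 0.56 (95% interval -0.45 to 2.14, adjusted p = 0.360 from edgeR). Without IR replicate 2 it was -0.17, so that its sign rested on that library.

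In IR replicate 2, the library with the fewest reads, rno-miR-9a-5p was 2.85 times as high as in the next library. Only 4 of the 418 tested miRNAs (0.957%) stood at least as far above their next library there. Besides rno-miR-9a-5p and rno-miR-9b-3p they were miR-541-5p (4.44 times) and miR-494-3p (3.58 times), miRNAs of the imprinted Dlk1-Dio3 region, named after their values were seen. The 500 reads behind the value give a 95% exact interval of 121 to 145 TPM, above the 43.4 TPM of the next library. Neuronal miR-124 had 1 read of its 3p arm and 0 of its 5p arm in that library. miR-137-3p, another neuronal miRNA, stood at 0.570 CPM there, beside 0.755 and 0.169 in IR replicates 1 and 3 and 0, 0 and 0.224 in sham replicates 1 to 3. Of 31 other listed miRNAs known from nervous tissue, tested or not, 5 were highest in IR replicate 2. Of the 16 tested ones only miR-212-5p was highest there, beside 74 of all 418 tested miRNAs (17.7%). These 5 are named after their values were seen. miR-344a-3p stood at 2.57 CPM there against at most 0.504 elsewhere, and miR-488-5p at 0.855 against at most 0.266. miR-212-5p stood at 2.00 against at most 1.96, and miR-129-1-3p and miR-129-2-3p each at 0.285 against at most 0.169. Over all libraries they had 14, 12, 82, 3 and 3 reads. In IR replicate 2 a single read gives 0.285 CPM, and miR-129-1-3p and miR-129-2-3p had equal levels in every library. The list of neuronal miRNAs (miR-124, miR-9a, miR-137 and miR-128, 8 listed) summed to 707 to 1263 CPM in sham and 427 to 650 CPM after IR, of which miR-128-3p alone made 678 to 1209 and 384 to 505 CPM. Its 4 tested miRNAs were miR-9a-5p and miR-9a-3p, which are themselves members, and miR-128-3p and miR-128-1-5p. Their log2 fold changes were 0.85, 0.03, -1.17 and 0.04, so that 3 were above 0, with a median of 0.03. The list is thus not independent of rno-miR-9a-5p. The part of nervous tissue in the value of rno-miR-9a-5p was not tested.

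rno-miR-9a-3p, the other arm, had few reads, 5, 12 and 16 in sham replicates 1 to 3 and 12, 5 and 7 in IR replicates 1 to 3. At 0.630, 1.06 and 1.79 CPM in sham and 1.81, 1.43 and 0.590 CPM after IR, it was not highest in IR replicate 2. The 5 reads in that library give a 95% exact interval of 0.430 to 3.09 TPM, too wide to tell whether this arm was raised there. Its log2 fold change was 0.03 with a 95% interval of -1.34 to 1.39 (adjusted p = 0.993 from edgeR), which includes a change of 2-fold in either direction. The ratio of rno-miR-9a-5p to rno-miR-9a-3p was 42.2, 37.3 and 27.9 in sham and 20.8, 100 and 53.7 after IR. It was not tested, because 3 libraries had fewer than 10 reads of the 3p arm.

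rno-miR-9b-3p held nearly the reads of rno-miR-9a-5p. It had 211, 445 and 446 reads in sham replicates 1 to 3 and 249, 500 and 373 in IR replicates 1 to 3, equal to rno-miR-9a-5p in 3 libraries and 1 to 3 reads lower in the others. The sequences above differ, yet all 18 nt of rno-miR-9b-3p are the reverse complement of positions 4 to 21 of rno-miR-9a-5p. In RefSeq rno-miR-9b-3p is on the opposite strand of 2 of the miR-9a genes, for example at chr1:142849418-142849435 (- strand). Its log2 fold change of 0.85 and adjusted p of 0.360 from edgeR are therefore not a second observation. The table does not show from which strand the reads came.

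The pair of the other arms did not behave in this way. All 19 nt of rno-miR-9b-5p are the reverse complement of positions 1 to 19 of rno-miR-9a-3p, but it had 3 reads against 57, or 5.26%. It had 1 read in each of sham replicates 1 and 2 and IR replicate 1, and 0 in the other libraries.

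Equal counts on opposite strands were common in the table. RefSeq placed 42 pairs of listed names on opposite strands of 1 locus with a complementary run of at least 16 nt. In 29 of the 42 pairs the counts lay within 5% or 2 reads of each other in every library. In 32 pairs the name with fewer reads held at least 90% of the other's, and in 4 pairs, rno-miR-9a-3p with rno-miR-9b-5p among them, it held less than 10%. The remaining 3 were miR-126a-5p with miR-126b, miR-29a-3p with miR-3556a, and miR-337-5p with miR-3544, named after their values were seen.

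**Figure D3:**
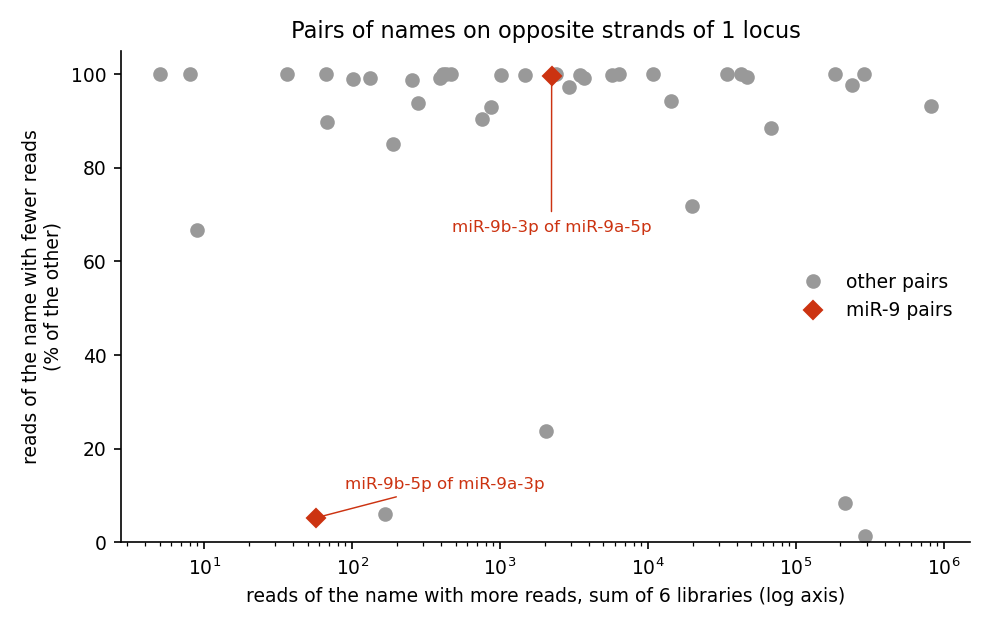
Reads of the name with fewer reads as a percentage of the other (vertical axis) against the reads of the name with more reads (horizontal log axis, sum of 6 libraries) for 42 pairs of listed miRNAs on opposite strands of 1 locus. miR-9b-3p sits at 99.7% of miR-9a-5p, among most other pairs, and miR-9b-5p at 5.26% of miR-9a-3p.

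miR-124, the most neuron-specific of the members, was at the edge of detection. rno-miR-124-3p, its main arm in neurons, had 2, 3 and 6 reads in sham replicates 1 to 3 and 0, 1 and 1 reads in IR replicates 1 to 3. The 0 reads in IR replicate 1 have a 95% exact interval of 0 to 0.585 TPM. rno-miR-124-5p had 3, 4 and 1 reads in sham and 2, 0 and 0 after IR. Sham had more reads in sum for both arms, 11 against 2 and 8 against 2, and the ratios of IR to sham were 0.243 (95% exact interval 0.0262 to 1.11) and 0.334 (0.0345 to 1.67), both with intervals that include 1. With no filter on low counts the adjusted p of these and of rno-miR-7b and rno-miR-9b-5p ran from 0.377 to 0.911 in edgeR's quasi-likelihood test. In sum rno-miR-9a-5p had 2231 reads and rno-miR-124-3p 13.

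**Figure D4:**
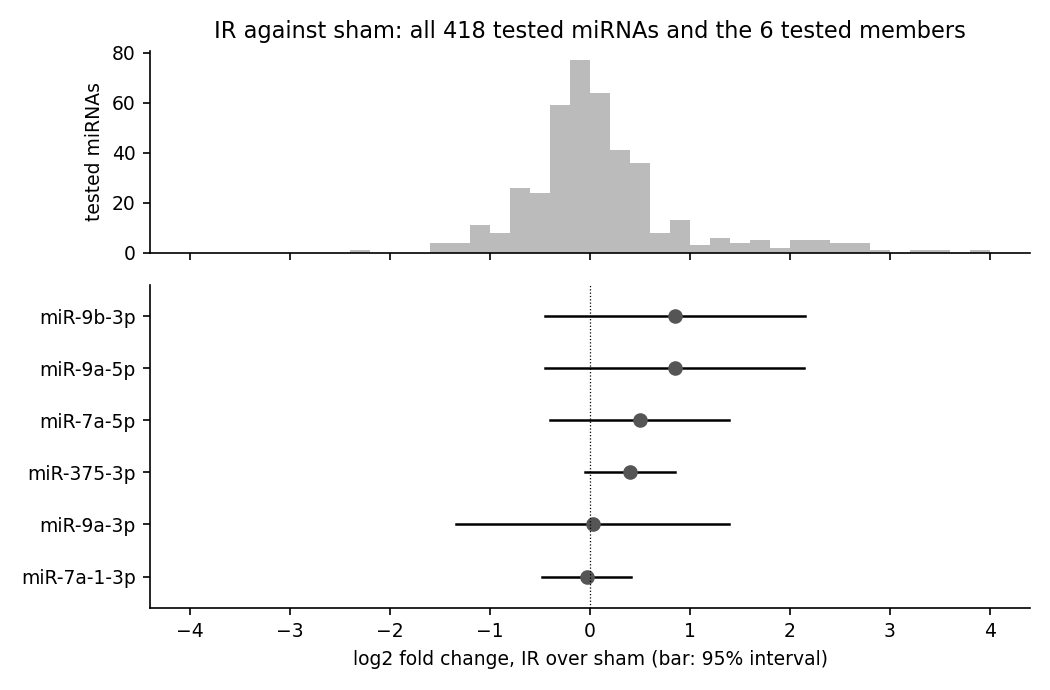
Log2 fold change of IR over sham (horizontal axis) as a histogram of all 418 tested miRNAs (upper panel) and for the 6 tested members with the 95% interval from edgeR (lower panel, n = 3 libraries per group). All 6 intervals include 0, and those of miR-9a-5p, miR-9b-3p and miR-9a-3p are the widest.

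The list of 31 other miRNAs known from nervous tissue was also compared between the groups. Of its 16 tested miRNAs 0 were higher and 1 was lower after IR, with a median log2 fold change of 0.05, and 11 of the 31 stayed under 1 CPM in every library. The lower one was miR-128-3p, a neuron-enriched miRNA also present in blood cells, at 678, 1122 and 1209 CPM in sham replicates 1 to 3 and 384, 505 and 451 CPM in IR replicates 1 to 3. All its IR libraries lay below all sham libraries (edgeR's adjusted p = 0.0229 for a log2 fold change of -1.17 with a standard error of 0.23). The lymphocyte miR-150-5p fell too, with a log2 fold change of -0.77 (adjusted p = 0.0229 from edgeR), and the 4 leukocyte arms of miR-142 and miR-223 had a median of -0.70 with 0 called. Their part in the value of miR-128-3p was not tested. The call of miR-128-3p was lost when sham replicate 3 was left out (edgeR's adjusted p = 0.0586), and likewise for IR replicate 1 (0.0561) and for IR replicate 3 (0.0777), that of miR-150-5p without sham replicate 3 or IR replicate 3 (0.0592 and 0.0777), and both with the replicate number as a block (0.0692 and 0.0918). Of the marker lists for other cells, that of striated muscle held 1 called miRNA, miR-1-3p (adjusted p = 0.0138 from edgeR). Its sham mean was 12.5 ± 1.68 CPM and its IR mean 31.2 ± 3.52 CPM (SD, n = 3 per group). The call was lost without IR replicate 3 (edgeR's adjusted p = 0.0700) and with the replicate number as a block (0.0692). The other 3 tested miRNAs of that list, miR-133a-3p, miR-206-3p and miR-133b-3p, had log2 fold changes of -0.01, -0.47 and 0.05, and the median of the list was 0.02. miR-1b, not on that list, is complementary to miR-3571 over its first 16 nt, as miR-1-3p is over its first 21. It had 23674 reads in all against 1017 of miR-1-3p, and a log2 fold change of -0.06 (adjusted p = 0.788 from edgeR). miR-218a-5p, known from motor neurons, had a sham mean of 1410 ± 50.0 CPM and an IR mean of 1252 ± 142 CPM (SD, n = 3 per group, adjusted p = 0.425 from edgeR), and miR-218b, its opposite-strand name, held 88.5% of its reads.

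The glial miRNAs miR-219a and miR-338, known from myelinating cells, had 5 listed arms with a summed level of 23.3 to 38.5 CPM in sham and 31.6 to 37.3 CPM after IR, and 0 of the 4 tested were called. In the cluster of miR-183, miR-96 and miR-182, of sensory and secretory epithelial cells 0 of 3 tested miRNAs were called. miR-182 stood at 2501 CPM in IR replicate 2 and at 1017 to 1402 CPM in the other 5 libraries, miR-183-5p at 882 beside 560 to 768, and miR-96-5p at 231 beside 98.9 to 157. IR replicate 2 was thus the highest library for these 3 miRNAs as for rno-miR-7a-5p and rno-miR-9a-5p. It was the highest library for 74 of the 418 tested miRNAs (17.7%).

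The miRNAs most like each tested member over the 6 libraries were found by Pearson's r on log2(CPM + 1), as a description, since libraries share depth and scaling. For rno-miR-7a-5p they were miR-30e-5p (r = 0.98), miR-146b-5p (0.97) and miR-361-3p (0.96), and without IR replicate 2 these values were 0.96, 0.94 and 0.92. For rno-miR-9a-5p they were miR-146b-5p (0.94), miR-30e-5p (0.90) and miR-10b-5p (0.89), which were 0.75, 0.65 and 0.03 without IR replicate 2. rno-miR-9b-3p had the same 3. Between rno-miR-7a-5p and rno-miR-9a-5p themselves r was 0.87, and 0.63 without that library. For rno-miR-375-3p they were miR-200c-5p (0.96), miR-6324 (0.95) and miR-196b-5p (0.95), all with few reads. The first had 126 reads in all and lay at 1.01 to 3.77 CPM. The others lay at 0.112 to 1.77 and 0.378 to 2.41 CPM. For rno-miR-7a-1-3p they were miR-449c-5p (0.92), miR-455-5p (0.89) and miR-490-3p (0.86), and for rno-miR-9a-3p miR-1b (0.82), miR-26a-5p (0.77) and miR-148b-5p (0.77). None of these 13 miRNAs passed the test of IR against sham in edgeR, with adjusted p from 0.258 to 0.971.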

How the data were processed

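The authors deposited whole read counts of 693 miRNAs for each of 6 libraries, together with TPM. These TPM were found to be counts per 1000000 listed reads, without division by length. Bowtie is named in the submitters' processing notes; genome build, annotation and the rules for mismatches, strand and multiply matching reads are not given in the sources. Groups were taken from the sample labels, and all value columns were assigned. Low miRNAs were removed with filterByExpr (at least 10 reads, total of 15) and the counts scaled by TMM and tested in R 4.3.3 with edgeR 4.0.16 (glmQLFit, glmQLFTest), adjusted over all tested miRNAs. The standard error is the log2 fold change over the square root of F, with intervals from its t quantile. DESeq2 1.42.0 and limma 3.58.1 served as alternatives, and scipy 1.17.1 gave exact tests. The script was tested on simulated counts. Sequences were matched by name for 569 of 630 named rat miRNAs, and gene spans were taken from the GRCr8 annotation. Named were every member, the most abundant and called miRNAs of each list and the 3 most like each tested member. Members and lists were chosen with earlier results of these data known. Same-numbered samples were not treated as pairs in the main fit, since their deviations correlated at -0.23, -0.39 and -0.18. With 3 samples per group these values cannot settle whether the numbers mark pairs.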

Additional observations from a re-analysis of the deposited data

How the results depend on the processing

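The number of called miRNAs was 44. It was 26 with 10 reads required in every library, 75 with DESeq2, and 110 at an unadjusted p. With 1 library left out it ran from 2 (without IR replicate 3) to 57 (without sham replicate 2), with 21 when sham replicate 3 was left out, 24 for IR replicate 1 and 17 for IR replicate 2. With the replicate number as a replicate block it was 0 in edgeR (84 at an unadjusted p). Whether same numbers mark pairs is not stated in the labels. Across these fits, and with rno-miR-9b-3p left out (an alternative chosen after seeing the data), 0 tested members were called. Their adjusted p ran from 0.0684, for rno-miR-375-3p without sham replicate 2, to 0.997. With 1 library left out, the log2 fold change ran from 0.24 to 0.63 for rno-miR-375-3p, from 0.01 to 0.84 for rno-miR-7a-5p, from -0.10 to 0.04 for rno-miR-7a-1-3p, from -0.17 to 1.25 for rno-miR-9a-5p, from -0.17 to 1.26 for rno-miR-9b-3p and from -0.46 to 0.55 for rno-miR-9a-3p. rno-miR-9a-3p did not pass the filters of 10 reads in every library or without sham replicate 3 and has no value there. The median of the cluster of miR-183, miR-96 and miR-182 ran from -0.11 without IR replicate 2 to 0.42 without IR replicate 3. The ratio of arms, IR mean over sham mean, was 1.39 for miR-7a (1.05 to 1.89 with 1 library left out) and 1.62 for miR-9a (1.04 to 2.15), lowest without IR replicate 2 in both. On log2(TPM + 1) the miRNAs most like rno-miR-375-3p were 3 others, rno-miR-7a-1-3p and rno-miR-9a-3p kept 1 of their 3 (r with miR-449c-5p 0.67, with miR-1b 0.25), rno-miR-7a-5p kept 2, and rno-miR-9a-5p and rno-miR-9b-3p kept all 3.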
